A study of Mus musculus with 12 samples.

Results

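RNA was measured in inguinal white adipose tissue (iWAT), the subcutaneous fat pad of the groin, of mice given a stabilized analog of glucose-dependent insulinotropic polypeptide (GIP) or saline. The 3 GIP analog and 3 saline samples of iWAT are 6 of the 12 samples of the series. All came from adult C57/BL6 control mice that were on chow for 10 days with 3 subcutaneous injections and then on a high-fat diet (HFD) for 2 weeks with 5 further injections. In the GIP analog mice the HFD injections each held 2 pmol/kg of (D-Ala2)GIP[Lys37PAL], and the chow injections were saline except the last, a sensitizing dose of the analog, whereas saline mice had saline on HFD. Genes were chosen by level alone. Of 27179 genes in the table, 13837 had a log2 CPM of at least 0 on average, that is, at least 1 CPM (reads scaled to library size) over the samples compared, and these were the genes tested.

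The values of each sample could not be tied to a treatment, since the 6 columns that hold them carry headings that match no sample label. No level, spread or depth of a single mouse is therefore given, and the precision of each sample is unknown here. What is given is the deposited log2 fold change between the treatments with an implied standard error, which is the size of the fold change divided by the square root of its likelihood ratio. This error covers what the edgeR test took into account. The labels call the 3 samples of a treatment replicates without saying that they are separate mice, so the p-values measure only the spread between these samples, which may be technical. The sign is reported as deposited. Which treatment lies on top is not written in the table, and the other sources conflict. The table's name puts saline before GIP, the study plots the same fold changes as GIP relative to saline, and its text and gene set plots for this tissue run in the direction opposite to that reading. Whether a positive value means more RNA with the GIP analog or with saline is therefore not settled here, and genes are called positive or negative and not raised or lowered. A gene was called when its edgeR p-value, adjusted over the 13837 genes by the Benjamini-Hochberg method, was under 0.05.

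GIP is an incretin, a hormone that enteroendocrine cells of the gut release after a meal, above all after fat. Its receptor couples to the stimulatory G protein and adenylate cyclase, and in adipose tissue it is known for effects on lipid uptake, lipoprotein lipase and insulin-dependent storage. Inguinal fat is the rodent depot in which beige adipocytes, white fat cells that burn fuel for heat, arise most readily, and it surrounds a lymph node. Main adipocyte markers were abundant, which bears out adipose tissue but does not identify the depot. The average log2 CPM was 13.92 for the fatty-acid carrier Fabp4, 13.20 for adipsin (Cfd), 11.58 for adiponectin (Adipoq) and 10.06 for leptin (Lep). Only 8 of 26 skeletal muscle genes, 7 of 20 keratinocyte genes and 5 of 18 genes of secretory epithelium passed the level filter.

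Across all tested genes the signs were unequal in number. There were 1001 called genes, 7.23% of those tested, with 237 positive (1.71%) and 764 negative (5.52%). With a log2 fold change beyond 1.5 in size as a second condition, 31 positive (0.224%) and 520 negative genes (3.76%) were left, so that large changes were mostly negative. Positive calls made up 23.7% of all calls. The split depends on where 0 is set. The median of all tested genes was −0.02, with quartiles at −0.28 and 0.19, and the median of 76 cytosolic ribosomal protein genes was −0.11. With that median as 0, 509 genes were positive and 632 negative, 44.6% positive. This setting was added with the results in view. The plot of fold change by level shows that negative calls prevailed among scarce genes. There were 8 positive and 165 negative calls at an average log2 CPM between 0 and 1, and 58 and 65 between 5 and 6. Positive calls outnumbered negative ones between 6 and 6.75, with 51 and 16. Between 7 and 8 there were few calls of either sign, 4 positive and 2 negative.

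**Figure D1:**
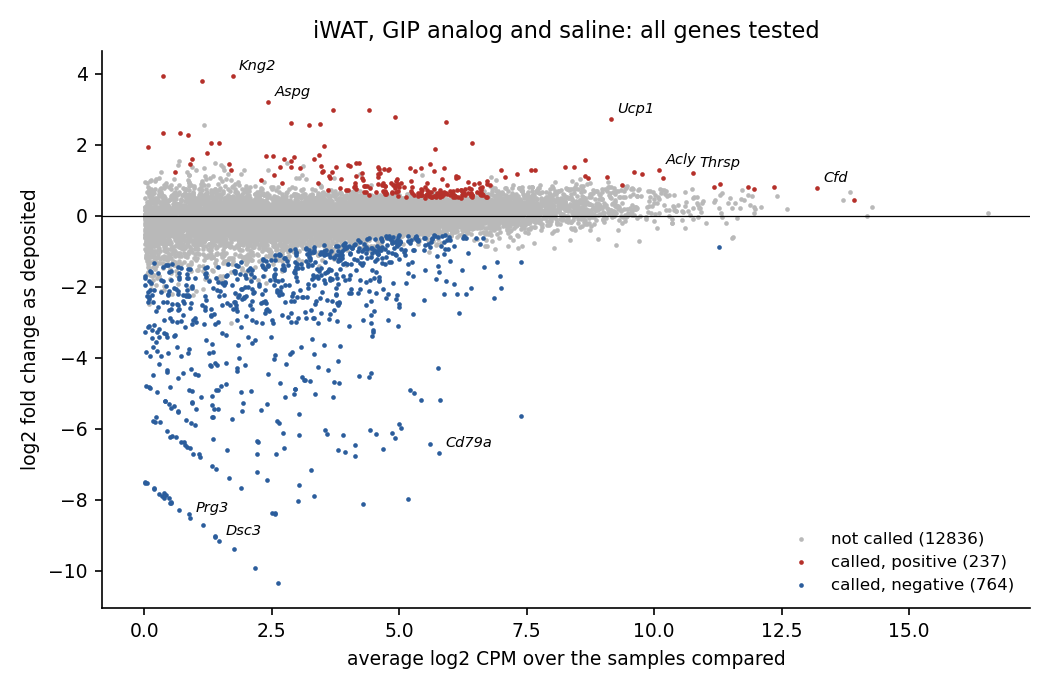
Log2 fold change as deposited (vertical axis) against average log2 CPM (horizontal axis) for the 13837 genes tested in iWAT, 1 point a gene, with 237 positive calls in red, 764 negative calls in blue and the others in grey. The negative calls reach below −9 at low level, while the positive calls stay below 4.

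Genes of the tricarboxylic acid (TCA) cycle, which oxidizes acetyl-CoA in mitochondria, stood uniformly on the positive side. All 19 tested members lay at 0.53 (Mdh1) or above, their median was 0.77, and all 19 had an unadjusted p under 0.05 on that side, as had 856 of all 13837 genes. After adjustment 4 of the 19 were called, all positive, beside 1.71% of all tested genes. Of these, the gamma subunit of isocitrate dehydrogenase, Idh3g, had 1.07 ± 0.33 (implied standard error), the succinate dehydrogenase subunit Sdhd 0.83 ± 0.25, and Suclg2, the GTP-forming subunit of succinyl-CoA ligase, 0.68 ± 0.20. Their adjusted p-values were 0.0202, 0.0198 and 0.0119. Citrate synthase (Cs), the entry enzyme of the cycle, stood at 0.80 ± 0.30 and did not pass (adjusted p = 0.0886). The members named here that passed and the one that did not therefore differed little in size, and 17 of the 19 lay above an average log2 CPM of 6.75, where the implied standard error is larger, as described at the end. Of those 17, 2 were called, and of these Idh3g lost its call when genes below and above that level were adjusted separately.

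Glycolysis and the handling of pyruvate gave the same picture at a slightly lower median. Of 24 tested genes 23 lay above 0, the exception being hexokinase 1 (Hk1, −0.09), and the median was 0.68. There were 4 positive calls, beside 1.71% of all tested genes, and no negative one. Pdk4, the kinase that turns off pyruvate dehydrogenase when fat is the fuel, had 1.28 ± 0.35 (chromosome 6 from 5483351 to 5496278; adjusted p = 0.00655), which is the largest value of this list. Pdk4 is also on the thermogenic list and on that of the glucocorticoid and fasting response. The muscle-type and platelet-type phosphofructokinases Pfkm and Pfkp had 0.71 ± 0.20 and 0.53 ± 0.18 (adjusted p = 0.00969 and 0.0448). Pfkp lost its call when p-values were adjusted over all 27179 genes. Gapdh had 0.80 ± 0.25, a value that is uncertain because its many pseudogenes can share its reads. Subunits of pyruvate dehydrogenase itself, Pdha1 at 0.79 ± 0.31 and Pdhb at 0.75 ± 0.33, did not pass (adjusted p = 0.103 and 0.184). Slc2a4, the insulin-dependent glucose transporter GLUT4 that feeds this pathway, stood at 0.62 ± 0.30 and did not pass either (adjusted p = 0.255), whereas the fructose transporter Slc2a5, one of the 10 largest positive genes, had 2.56 ± 0.64 (adjusted p = 0.00193).

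De novo lipogenesis builds fatty acids from acetyl-CoA. Of its 21 tested genes 20 lay above 0 and 6 were called, all positive (28.6%, beside 1.71% of all genes), with a median of 0.70. They comprise enzymes and regulators, and Elovl3 is also on the thermogenic list. ATP citrate lyase Acly, which makes cytosolic acetyl-CoA from citrate, had 1.29 ± 0.43 (chromosome 11 from 100476352 to 100528000; adjusted p = 0.0383). Acacb, the acetyl-CoA carboxylase whose malonyl-CoA holds back fatty-acid entry into mitochondria, had 1.11 ± 0.27 (adjusted p = 0.00130). The elongases Elovl6 and Elovl3 had 0.97 ± 0.32 and 2.79 ± 0.72, and the regulators of lipogenic genes Thrsp and Mlxipl (ChREBP) had 1.20 ± 0.34 and 0.72 ± 0.23. Acaca, the carboxylase isoform of the cytosol, stood at 0.68 ± 0.29 and fatty acid synthase Fasn at 0.70 ± 0.37, near the list median, and neither passed (adjusted p = 0.158 and 0.314). The stearoyl-CoA desaturase Scd1 was the most abundant gene of the list, with an average log2 CPM of 16.54, and had 0.08 ± 0.05, close to 0. The regulator Srebf1 had 0.33 ± 0.30 (adjusted p = 0.663). In the neighbouring pathway of cholesterol, 1 of 23 genes was called, farnesyl diphosphate synthase Fdps with 0.64 ± 0.21, and the median was 0.43. The call of Fdps ended when p-values were adjusted over all 27179 genes and when fold changes were centred on the reference genes, and that of Acly ended under the same settings and when genes below and above log2 CPM 6.75 were adjusted separately.

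Other mitochondrial and peroxisomal genes lay on the positive side with smaller values. All 76 genes of the mitochondrial ribosome were above 0, between 0.10 (Mrpl57) and 0.70 (Mrps36), with a median of 0.29 and 6 positive calls (7.89%, beside 1.71% of all tested genes), among them Mrps2 with 0.68 ± 0.19 and Mrpl12 with 0.65 ± 0.19. The 76 genes of the cytosolic ribosome, by contrast, had 21 members above 0 and none called in edgeR's test, with 1 negative member at an unadjusted p under 0.05. The difference between these lists was not tested, and the median of the cytosolic list is 0 by construction when it is used as the centre. All 33 genes of the peroxisome were above 0 as well (median 0.28), none was called, and 7 had an unadjusted p under 0.05. Import, dynamics and carriers of mitochondria had 36 of 40 genes above 0 and 2 called positive, beside the same 1.71%. These are the coenzyme A carrier Slc25a42, with 1.10 ± 0.20 (chromosome 8 from 70184340 to 70212281; adjusted p = 5.03e-06), and Slc25a34, a carrier of little-known substrate, with 2.61 ± 0.61 (adjusted p = 7.54e-04). The transcription factor of mitochondrial DNA, Tfam, had −0.03 ± 0.21 (adjusted p = 0.977). Of the 13 proteins that the mitochondrial genome encodes, 12 were above 0, with a median of 0.55, and the complex I subunit ND3 (0.90 ± 0.25) and the complex IV subunit COX2 (0.80 ± 0.27) were called. The mitochondrial ribosomal RNA mt-Rnr1 had 0.81 ± 0.24, one of 6 tested ribosomal or poly(A)-free RNAs, of which it was the only one called. The 7SK RNA Rn7sk had −1.32 ± 0.47 (adjusted p = 0.0583). The calls of COX2 and mt-Rnr1 ended when genes below and above an average log2 CPM of 6.75 were adjusted separately. The breakdown of branched-chain amino acids, a fuel of adipocytes, had 23 of 24 genes above 0 (median 0.45) and 1 called, the methylmalonyl-CoA epimerase Mcee with 0.63 ± 0.18. Bckdha, a subunit of the dehydrogenase that commits these amino acids, had 0.75 ± 0.30 (adjusted p = 0.128).

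**Figure D2:**
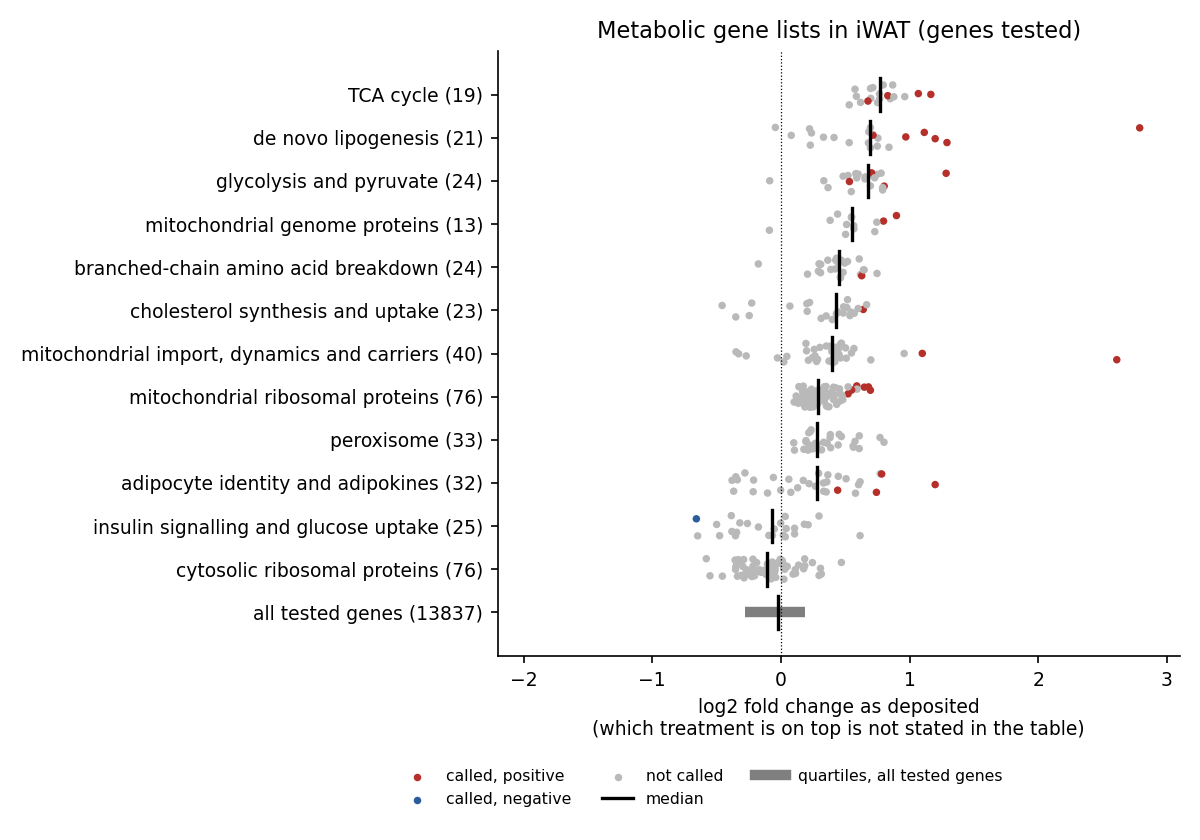
Log2 fold change as deposited (horizontal axis) of the tested members of 12 gene lists (rows, number of genes tested in brackets), 1 point a gene, red for positive calls, blue for negative calls and grey for the rest, with the list median as a black bar and the quartiles of all 13837 tested genes in the last row. The lists of fuel use lie right of 0, with medians up to 0.77 for the TCA cycle, while the insulin and cytosolic ribosome lists straddle it.

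Thermogenic and lymphocyte genes stood beside these lists with larger values. Elovl3 and Pdk4 are counted in the thermogenic list as well as in those of lipogenesis and glycolysis. All lists were chosen with earlier results of these data known, so their shares of calls are a description and no test. Of 25 tested thermogenic genes 15 were called positive (60%, beside 1.71% of all tested genes) and none was called negative. Their median was 1.28, with Ucp1 at 2.71 ± 0.58 among the positive calls. The members below 0 were Tnfrsf9 at −1.83 ± 0.68 and Tmem26 at −0.96 ± 0.46, both used as markers of beige fat, with an unadjusted p under 0.05 and adjusted p-values of 0.0792 and 0.247. On the other side all 18 B cell genes and all 24 T cell genes were below 0, with medians of −6.01 and −2.76. Of these, 17 and 22 were called negative, beside 5.52% of all tested genes. Also called negative were 99 of 106 segments of the antigen receptor loci, whose reads are shared and which are given as a count only. Without values by treatment the summed level of these markers could not be given, and their part in the metabolic values was not tested. With all lymphoid lists and segments left out before adjustment, 214 genes were positive and 579 negative. In a bulk sample, fewer cells of a type and less RNA per cell cannot be told apart.

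Adipocyte identity genes were less uniform than fuel genes. Of 32 tested genes 22 were above 0 and 4 were called, all positive (12.5%, beside 1.71% of all tested genes), with a median of 0.28. All 4 called genes had an average log2 CPM above 10, where 10 of 99 tested genes were called positive. The secreted protease adipsin, Cfd, had 0.78 ± 0.18 (chromosome 10 from 79890853 to 79892655; adjusted p = 8.38e-04), and Fabp4 had 0.44 ± 0.11 (adjusted p = 0.00157), a small change on an average of 15452 CPM. Thrsp was described above, and glycerol-3-phosphate dehydrogenase Gpd1, which supplies the backbone of triglycerides, had 0.74 ± 0.25, a call that ended under several alternative settings (adjusted p = 0.0459). Pparg, the nuclear receptor that drives adipocyte differentiation, stood at 0.00 ± 0.32 and the lipid droplet coat protein Plin1 at −0.06 ± 0.36. Among adipokines, adiponectin had 0.35 ± 0.19, leptin −0.34 ± 0.38 and resistin (Retn) 0.36 ± 0.23, and none of these 3 passed (adjusted p = 0.336, 0.743 and 0.478). Lipoprotein lipase (Lpl), an enzyme under GIP control in adipocytes, had 0.29 ± 0.19 (adjusted p = 0.448).

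The receptor of the injected peptide and its signaling chain gave few calls. Gipr was near the level limit, with an average of 1.06 CPM, and had −0.39 ± 0.45 (adjusted p = 0.752), so that a change by as much as its implied error could not be detected at this level. Of 29 tested genes of the GIP receptor and cAMP chain, 1 was called positive and 2 were called negative, 10.3% beside 7.23% of all genes. The sign of the list median (−0.03) changed with the setting. Adenylate cyclase 3 (Adcy3), a producer of cAMP, had 0.87 ± 0.23 (adjusted p = 0.00398). The phosphodiesterase Pde4b, which degrades cAMP, had −0.72 ± 0.19 (adjusted p = 0.00495). Adrb3, the beta receptor of rodent adipocytes, stood at 0.77 ± 0.30 (adjusted p = 0.0962), and Adra1a, an alpha-1 receptor outside the lists, had 1.03 ± 0.20 (adjusted p = 3.74e-05). Insulin signaling and glucose uptake had 1 call in 25 genes, Foxo1 with −0.66 ± 0.21, a transcription factor that insulin excludes from the nucleus. This call ended when fold changes were centred on cytosolic ribosomal genes, and the share of 4% called is below the 7.23% of all genes. The insulin receptor Insr had 0.11 ± 0.20 and the docking protein Irs1 0.03 ± 0.22.

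Genes of the circadian clock were called on both sides. The clock is a feedback loop in which the activators Arntl (BMAL1), Clock and Npas2 bind E-box elements and switch on their own repressors, among them the Per and Cry genes and Ciart, while the PAR-bZIP factors Dbp, Tef and Hlf act as outputs on D-box elements. Of 18 tested genes, 4 were called negative and 1 positive, 27.8% beside 7.23% of all genes. The repressor Ciart had −1.91 ± 0.47 (adjusted p = 0.00178), Dbp −1.84 ± 0.51 (adjusted p = 0.00815), Per3 −0.77 ± 0.21 (adjusted p = 0.00642) and Tef −0.65 ± 0.22 (adjusted p = 0.0458). The activator Npas2 had 1.22 ± 0.41 (adjusted p = 0.0437), at an average of only 1.52 CPM. Arntl, the main activator, stood at 0.86 ± 0.30 (adjusted p = 0.0549) and Nfil3, a repressor of D-box genes, at 0.71 ± 0.36 (adjusted p = 0.266), both above 0 without passing, and Per2 at −0.68 ± 0.30 (adjusted p = 0.188). Nr1d1, which is among the most strongly cycling genes, had −0.09 ± 0.32. The times of day at which tissues were taken are not given in the sources used here, so that a difference in time between the treatments was not tested. The calls of Tef and Npas2 ended without the level filter, and that of Tef also when fold changes were centred on cytosolic ribosomal genes.

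**Figure D3:**
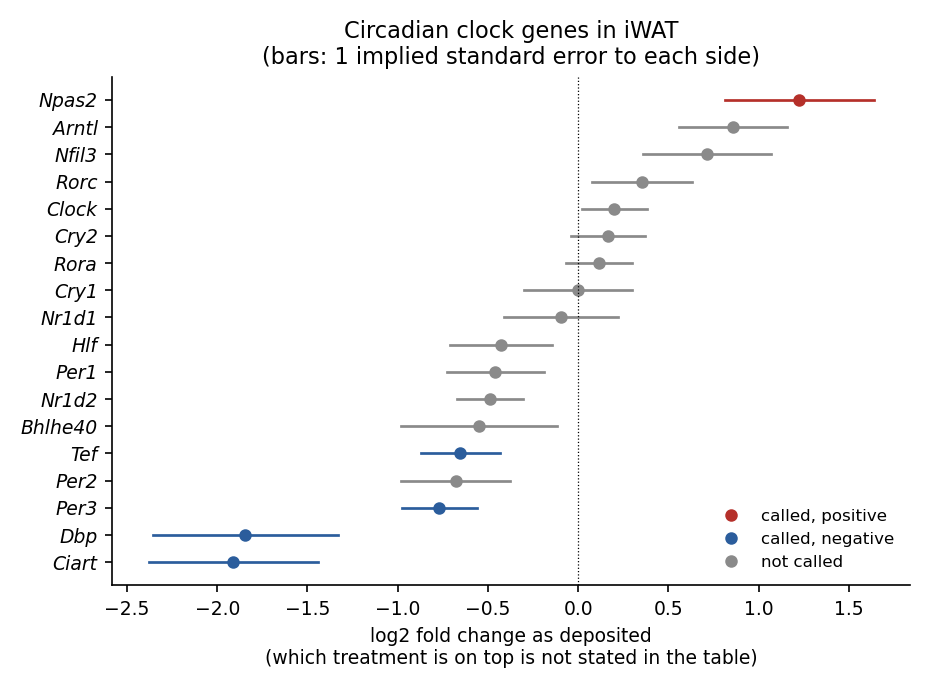
Log2 fold change as deposited (horizontal axis) of the 18 tested clock genes (rows), with bars of 1 implied standard error to each side, red for the positive call, blue for the negative calls and grey for the rest. Ciart and Dbp lie near −1.9, Npas2 and Arntl lie highest, and Cry1 is at 0.

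Start regions are shown for Ciart, Per3 and Tef, all called negative, because the DNA elements of this loop are known. These are the called clock genes whose windows hold such an element. The sequences are RefSeq windows of GRCm38.p6 of 300 bases, 250 before and 50 from the start, written 5′ to 3′ on the strand of the gene in lower case. Capitals mark the E-box CACGTG, which reads alike on both strands, or the D-box TTATGTAA, searched on both strands, and neither overlaps the other. Of 32851 RefSeq windows of that length, 7.15% hold the E-box and 0.938% the D-box. The window of Ciart (chr3:95882179-95882478, minus strand) holds 3 E-boxes and that of Per3 (chr4:151044616-151044915, minus strand) 2 D-boxes. Tef has 2 start windows with 1 E-box each, of which the first (chr15:81802423-81802722, plus strand) is shown.
Ciart: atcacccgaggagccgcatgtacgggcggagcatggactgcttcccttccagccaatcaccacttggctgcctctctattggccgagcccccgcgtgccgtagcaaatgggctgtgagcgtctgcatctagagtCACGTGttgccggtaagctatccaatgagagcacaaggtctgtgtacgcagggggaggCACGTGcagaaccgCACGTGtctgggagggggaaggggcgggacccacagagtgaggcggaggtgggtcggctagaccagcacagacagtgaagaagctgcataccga
Per3: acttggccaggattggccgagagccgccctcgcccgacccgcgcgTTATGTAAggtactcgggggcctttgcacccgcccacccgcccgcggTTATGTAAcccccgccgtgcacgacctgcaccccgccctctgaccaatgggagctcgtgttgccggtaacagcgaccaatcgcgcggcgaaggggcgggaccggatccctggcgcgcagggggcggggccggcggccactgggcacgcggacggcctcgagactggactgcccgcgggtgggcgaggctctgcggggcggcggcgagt
Tef: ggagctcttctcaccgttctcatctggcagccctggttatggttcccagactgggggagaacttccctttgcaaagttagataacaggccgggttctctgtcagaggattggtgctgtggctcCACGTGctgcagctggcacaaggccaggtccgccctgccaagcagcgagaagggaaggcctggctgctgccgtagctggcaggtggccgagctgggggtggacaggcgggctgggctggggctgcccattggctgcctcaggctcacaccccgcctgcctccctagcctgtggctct

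The windows of Dbp, called negative, and Npas2, the positive call, hold neither set of letters and are not shown. Of the 18 tested clock genes 15 had a window, and the E-box was in windows of 4 of them, Ciart, Cry1, Per1 and Tef, whereas the D-box was in that of Per3 alone. Of the 4 with an E-box, Ciart and Tef were called negative, Per1 stood at −0.46 ± 0.27 (adjusted p = 0.397) and Cry1 at 0.00 ± 0.30. A match is a description of letters in a window of this length and no evidence of binding.

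Acute response genes leaned to the negative side. Of 23 tested immediate early and stress genes 18 were below 0 and 3 were called, all negative, with a median of −0.35. The AP-1 subunit Junb had −0.96 ± 0.26 (adjusted p = 0.00517), the antiproliferative gene Btg2 −0.62 ± 0.19 (adjusted p = 0.0222), and Ier5 −1.55 ± 0.49 (adjusted p = 0.0281). The share of 13% called stands beside 5.52% negative calls among all genes, and the call of Btg2 ended with the ribosomal centre. Among 16 genes of the glucocorticoid and fasting response 1 was called positive, Pdk4, and 1 negative, Ddit4, an inhibitor of mTORC1 signaling, with −0.98 ± 0.27 (adjusted p = 0.00839). Heat shock and protein folding had 1 call in 29 genes, the small heat shock protein Hspb1 with 0.49 ± 0.17, and this call ended under several alternative settings.

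Structural and vascular genes showed little change at this precision. None of 18 collagens and none of 33 matrix genes was called by edgeR's p, and at an unadjusted p under 0.05 the counts were 1 and 3. Their medians, 0.01 and −0.01, changed sign with the setting. Of 24 genes of blood endothelium 1 was called (4.17%, beside 7.23% of all tested genes). It was endothelial nitric oxide synthase Nos3 with 0.55 ± 0.18, a call that ended without the level filter. None of 15 genes of pericytes and smooth muscle passed, with 1 negative at an unadjusted p under 0.05. Adipocyte progenitors and fibroblasts had 18 of 24 genes above 0 and 2 negative calls (8.33%, beside 5.52% of all tested genes). These were Cd55 with −0.67 ± 0.20 and Thy1 with −0.72 ± 0.24, both of which lymphocytes also express. Both calls ended when fold changes were centred on cytosolic ribosomal genes. Of 6 red blood cell genes none was called and none had an unadjusted p under 0.05, with values between 0.03 and 0.20. Of 8 tested skeletal muscle genes 6 were below 0 and 2 were called negative (25%, beside 5.52% of all tested genes), Ttn (−4.44 ± 0.78) and Acta1 (−1.00 ± 0.33). The 14 tested genes of Schwann cells and nerve had 1 positive call, the calcium-binding protein S100b with 1.28 ± 0.25 (adjusted p = 2.14e-05), which adipocytes express too.

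Myeloid genes were called on both sides. Macrophage and monocyte genes had 22 of 30 members above 0 and a median of 0.31, with 6 positive calls and 1 negative, beside 1.71% and 5.52% of all tested genes. The positive ones were the scavenger receptors Cd163 with 0.75 ± 0.19 (adjusted p = 0.00237) and Mrc1 with 0.61 ± 0.17 (adjusted p = 0.00837), the lectin Mgl2 with 0.61 ± 0.18, the surface receptor Adgre1 with 0.63 ± 0.19, the folate receptor Folr2 with 0.56 ± 0.18 and the complement subunit C1qa with 0.49 ± 0.17. Cd163, Mrc1 and Folr2 are known from resident macrophages. Cd9 (−0.35), Trem2 (0.15), Gpnmb (0.01), Itgax (−0.32), Spp1 (0.49) and Lpl (0.29), known from lipid-associated macrophages of obese fat, did not pass. Lpl was also counted with the adipocyte genes. Timd4, a receptor for phosphatidylserine of certain resident macrophages, including those of lymph nodes, was the negative one with −1.65 ± 0.41 (adjusted p = 0.00168). The call of C1qa ended without the level filter. Dendritic cell genes were on the negative side, with 13 of 15 below 0 and 6 negative calls beside 5.52% of all genes, the chemokine Ccl22 at −4.10 ± 0.85 and the transcription factor Irf8 at −1.62 ± 0.37 among them. Of 14 genes of NK and cytotoxic cells all were below 0 (median −0.84), 1 was called, the chemokine Ccl5 with −1.93 ± 0.60 (adjusted p = 0.0224), and 8 had an unadjusted p under 0.05.

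Antigen presentation was followed with a list for each class. None of the 20 listed genes of MHC class I presentation was called (H2-Q2, a class I gene outside the list, is given further on), 1 was positive at an unadjusted p under 0.05, and the median was 0.11. All 12 genes of MHC class II presentation were below 0 with 6 negative calls (50%, beside 5.52% of all tested genes). Those with the largest values are the ones known mainly from B cells, H2-Ob at −4.43 ± 0.56 and H2-Oa at −5.03 ± 0.69, with H2-Eb2 at −5.49 ± 0.90 and H2-DMb2 at −3.40 ± 0.56, while the invariant chain Cd74, which macrophages and dendritic cells carry as well, had −0.89 ± 0.29. The class II transactivator Ciita had −2.12 ± 0.49. The part of B cells in these values was not tested. Interferon-stimulated genes had 27 of 32 members above 0 and 2 positive calls (6.25%, beside 1.71% of all tested genes). These were the GTPases Igtp with 0.71 ± 0.24 and Irgm2 with 0.57 ± 0.19, and both calls ended without the level filter. Complement had 3 positive calls and 1 negative in 19 genes, beside 1.71% and 5.52% of all tested genes. Cfd, C1qa and C1qb were on the positive side and Cd55 on the negative. The call of C1qb ended without the level filter.

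The cell cycle list followed the negative side. Of 38 tested genes 37 were below 0, with a median of −1.00, and 6 were called negative, beside 5.52% of all tested genes, among them the ribonucleotide reductase subunit Rrm2 with −1.58 ± 0.45 (adjusted p = 0.0115), the replication helicase subunit Mcm2 with −1.28 ± 0.37 and the mitotic kinase Bub1 with −2.23 ± 0.61. Mki67, the usual marker of proliferation, stood at −1.24 ± 0.58 and did not pass (adjusted p = 0.216). Lymph node stroma and vessels had 15 of 16 genes below 0 and 11 negative calls (68.8%, beside 5.52% of all tested genes). The lymphatic endothelium list had 6 of 8 below 0 and 2 negative calls (25%). These 2 were the chemokine Ccl21a at −4.98 ± 0.95 and the scavenger receptor Stab2 at −2.43 ± 0.62. Ccl21a is counted in the lymph node list as well, and Cr2 in both the lymph node and the B cell list. Prox1, the defining transcription factor of lymphatic vessels, was below the level filter, and Lyve1 stood at 0.30 ± 0.20. The part of lymph node cells in the cell cycle values was not tested.

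**Figure D4:**
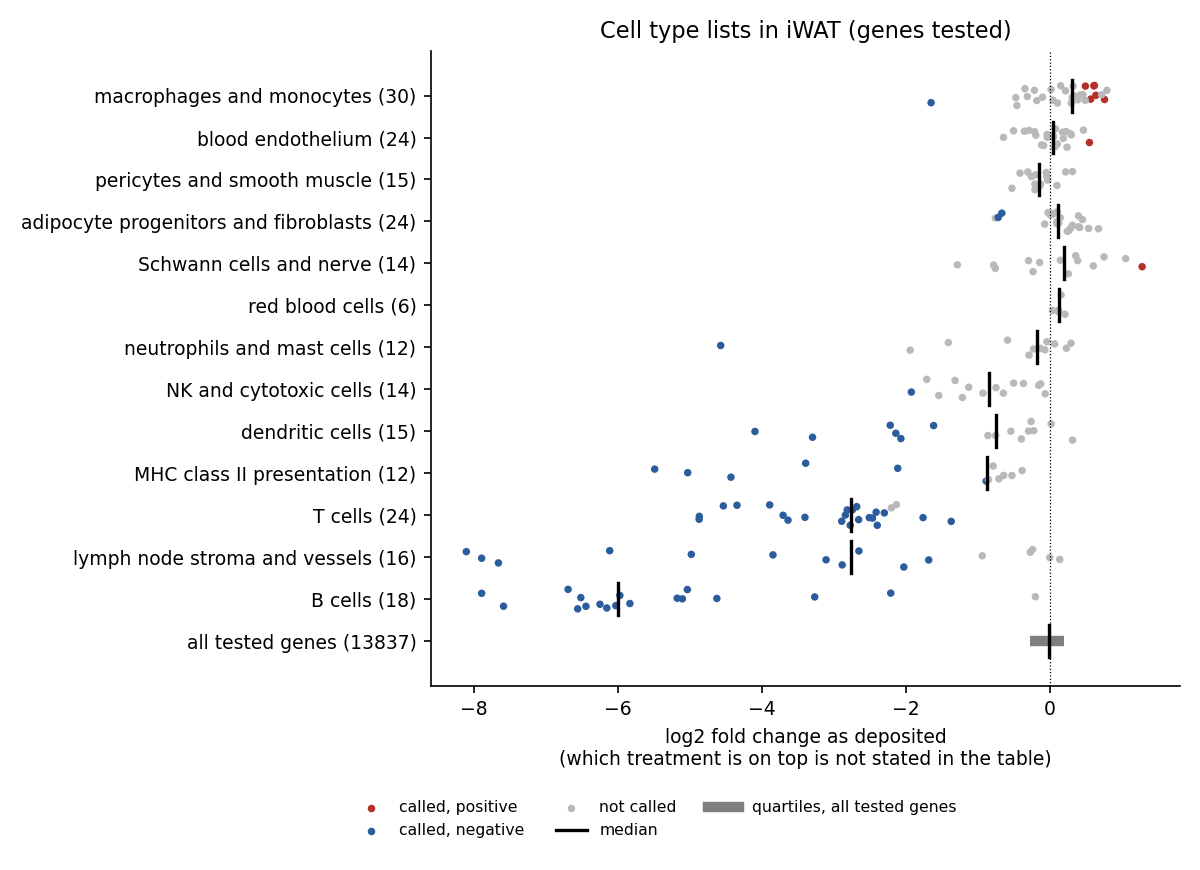
Log2 fold change as deposited (horizontal axis) of the tested members of 13 lists of cell types and of MHC class II presentation (rows, number of genes tested in brackets), drawn as for the metabolic lists. Macrophage genes lie mostly right of 0 with a median of 0.31, whereas B cell, T cell and lymph node genes reach far to the left, with medians of −6.01, −2.76 and −2.77.

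Most called genes belong to none of the lists, as do most tested genes. Of the 13837 tested genes 12880 are on no list, and of these 180 were called positive and 674 negative. Among all tested genes the calls were 237 positive (1.71%) and 764 negative (5.52%). Those with the smallest p on the positive side were headed by Itpk1, an inositol phosphate kinase, with 1.06 ± 0.18 (chromosome 12 from 102568583 to 102704869; adjusted p = 1.18e-06) at an average of 69.0 CPM. Tmem79, a membrane protein studied in skin, had 1.20 ± 0.23, Lncbate1, a long noncoding RNA of brown fat, 1.18 ± 0.24 and Acsm3, a mitochondrial medium-chain acyl-CoA synthetase, 1.47 ± 0.30. Aspg, an asparaginase, had 3.20 ± 0.67 at only 5.38 CPM. Also among the 10 largest positive changes was H2-Q2 with 2.59 ± 0.69, a class I gene whose reads may be shared with its close relatives. Kng2, a kininogen that was counted with the thermogenic list, had the largest value of all with 3.93 ± 0.96 at 3.31 CPM, and Slc27a2, a fatty-acid transporter and acyl-CoA synthetase, had 2.98 ± 0.69.

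A block of major urinary protein (Mup) genes was positive. These genes encode small secreted carriers of lipophilic ligands, are best known from the liver and lie in a tandem array. Of 18 tested Mup genes 17 were called, all positive, with values between 0.46 and 2.32 and a median of 1.33, and the exception was Mup3. They span chromosome 4 from 60003481 to 62087317 in GRCm38.p6. Mup22 had 1.33 ± 0.28 (adjusted p = 1.31e-04) at 43.0 CPM and Mup13 1.48 ± 0.32 at 17.8 CPM. The copies are nearly identical and can share reads, so that their values are uncertain one by one, 17 calls are far from 17 independent ones, and the family was picked after its values were seen.

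The largest negative values need a limit on how they are read. Outside the lists, the named negative gene with the smallest p was Ly6d, known from lymphocytes, with −5.88 ± 0.67. The 10 with the smallest p there also included Prg3 and Serpina10. By size, the 10 largest named genes were Dsc3 (−9.16), Prg3 (−8.53), Serpina10 (−8.29), Chst4 (−8.11), Havcr1 (−8.06), Cr2 (−7.90), Pcdh15 (−7.84), Dsg2 (−7.70), Glycam1 (−7.66) and Pou2af1 (−7.59). Dsc3 and Dsg2 are desmosomal cadherins of epithelia, and Glycam1 and Chst4 serve lymphocyte entry at high endothelial venules. For 7 of these 10, all but Cr2, Glycam1 and Pou2af1, the log2 fold change and the average log2 CPM added up to nearly the same number. In all, 24 genes had such a sum, 15 of them receptor segments, with values between −7.75 and −7.44, and no gene with a fold change below −5 had a sum between that and −5.86. On such a line the fold change is fixed by the gene's own average level, so these values say that the genes were called and give no size.

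The precision of the test changed with level in a way that bears on the lists above. The median implied standard error was 0.458 at an average log2 CPM between 0 and 1, 0.179 between 5 and 6 and 0.175 between 6 and 6.75. In narrower windows it was 0.179 between 6.50 and 6.75 and 0.270 between 6.75 and 7, a step within a narrow range of level. Among genes with an absolute log2 fold change between 0.6 and 0.8, 40 of 51 were called in the log2 unit below 6.75 and none of 38 in the unit above it. From 6.75 up 33 of 1440 genes were called (2.29%), and below it 968 of 12397 (7.81%). Most genes of the TCA cycle, glycolysis, lipogenesis and adipocyte identity lie above 6.75, and most clock and macrophage genes lie below it. The number of called members can therefore not be set against each other between lists of different level. The share over all tested genes that is given beside a list takes no account of level either. Positive calls were 58 of 2111 genes between 5 and 6, 4 of 652 between 7 and 8 and 10 of 99 from 10 up. Medians do not use the implied standard error, but the median of all tested genes itself rose with level. It was −0.28 between 0 and 1, 0.15 between 7 and 8, 0.24 between 8 and 10 and 0.30 from 10 up. The median of 0.28 of adipocyte identity genes, whose median level was 9.40, thus stands beside 0.24 for all tested genes between 8 and 10. The position of the step was picked after seeing the data, and its cause was not tested.

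**Figure D5:**
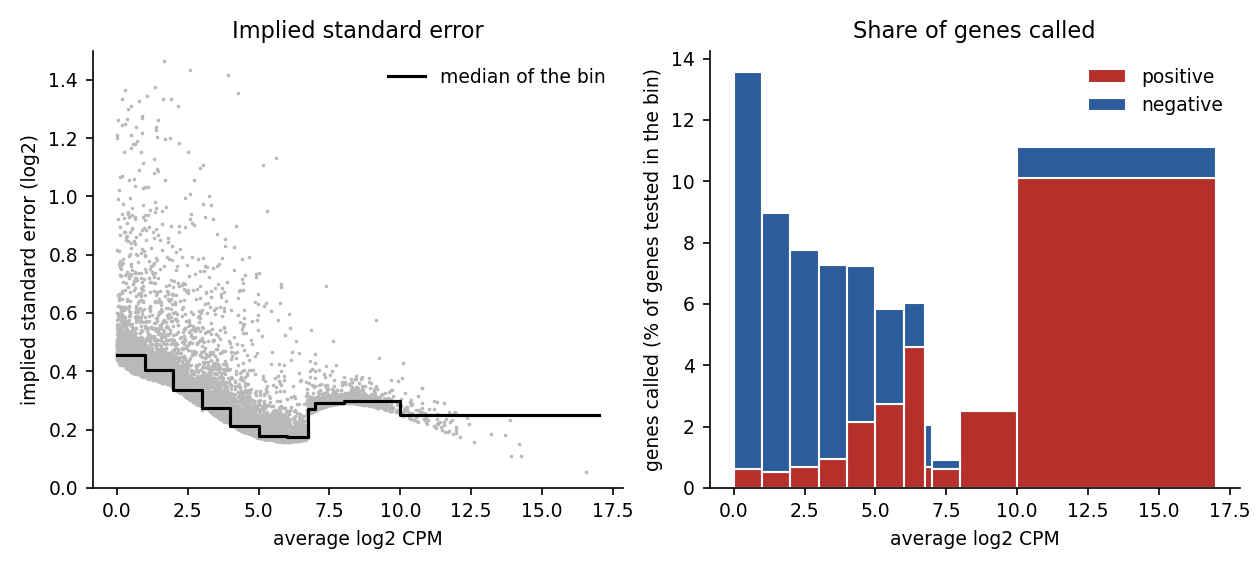
Left, implied standard error of the log2 fold change (vertical axis, log2) against average log2 CPM for the tested genes, 1 point a gene, with the median of each bin as a line, where 11 genes above 1.5 are outside the axis. Right, the share of tested genes called in each bin of level in percent, positive in red and negative in blue, which is 6.04% between 6 and 6.75, 0.920% between 7 and 8 and 11.1% above 10.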

How the data were processed

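Libraries of polyadenylated RNA were sequenced by the authors as paired reads on a NextSeq500. Per their methods and the submitters' processing notes, reads were trimmed with Trim Galore 0.6.4, aligned with Rsubread to GRCm38, filtered for low counts with DESeq2 1.32.0 and compared between treatments within a tissue with edgeR 3.34.0. The counting step, the annotation, the normalization and the edgeR test are not given in the sources used here. The deposited table of iWAT holds, for each of 27179 genes, the authors' log2 fold change, their average log2 CPM, a likelihood ratio, which is a score of the authors' test, and the p-value they computed from it, which equals the chi-square tail of that score with 1 degree of freedom. Recomputing a Benjamini-Hochberg adjustment on the 19249 genes with an FDR gave the deposited one, which was used for counts of missing values only.

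The table also holds 6 columns of values per sample with headings that fit none of the sample labels. These columns entered no step, so the depth of each sample is unknown here. The comparison had been planned as an edgeR quasi-likelihood fit of counts, with the authors' p-values adjusted anew as the fallback where no column names its treatment, and the fallback was used. This rests on columns of the authors' own comparison. The Benjamini-Hochberg adjustment covered the 13837 genes whose average log2 CPM was 0 or more. At this limit, 2810408A11Rik was just inside with an average log2 CPM of 0.00134 and Gm14057 just outside with −0.000204. A second count, with the threshold of the study's methods, required a log2 fold change beyond 1.5 in size. Members and gene lists (44 lists with 1059 symbols) were chosen with earlier results of these data known, and lists were described by counts and medians without a test of the list.

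Named genes were the 10 largest positive and 10 largest negative called genes, up to 5 members of each list with the smallest p, the 10 called genes outside the lists with the smallest p for each sign, and a set of adipose genes. Receptor segments and predicted genes were left out of the largest changes. The rule also asked that the samples of the treatments not overlap, which could not be checked. Other members named in the text were chosen after their values were seen. Some genes that the rule names are not reported here. RefSeq GRCm38.p6 held 25275 of the 27179 gene identifiers and 13538 of those tested, and gave coordinates and start windows. The steps were tested on simulated data. Alternatives changed the level filter, the threshold, the genes adjusted over and the centre. Python 3.11.15 was used with numpy 2.4.6, pandas 2.3.3, scipy 1.17.1 and matplotlib 3.10.9.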

Additional observations from a re-analysis of the deposited data

How the results depend on the processing

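Of the calls, 551 kept an absolute log2 fold change above 1.5, with 31 positive ones, and 87 of the 147 called list members passed that condition. With the lymphoid lists and receptor segments left out before adjustment, 84 list members were called, because the called members of those lists were among the genes removed. Centring on the cytosolic ribosomal proteins gave 509 positive calls, as in the report. Without the level filter 192 genes were positive and 937 negative, at an average log2 CPM of at least 1 the counts were 218 and 579, over genes with an authors' FDR 163 and 549, with genes below and above log2 CPM 6.75 adjusted separately 232 and 774, and centred on the reference genes (0.06 subtracted) 167 and 889. No named gene changed sign past the threshold. Of the named genes 18 lost their call without the level filter, 14 when centred on the reference genes, 10 without lymphoid genes, 8 when centred on cytosolic ribosomal proteins, 5 at the higher level limit, 5 when adjusted separately and 1 over genes with an FDR, while 30 gained one when centred on cytosolic ribosomal proteins. The medians of 11 lists changed sign in some setting, among them GIP receptor and cAMP signalling, insulin signalling, collagens, matrix, blood endothelium and the reference genes. Settings other than the level filters and the threshold were chosen after seeing the data.

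No paired analysis was possible because the columns per sample carry no treatment or replicate number, and for the same reason other normalizations, DESeq2, the other edgeR tests, filterByExpr, another pseudocount and leaving out each replicate were not run. How many mice carry any call is therefore unknown.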

Other observations

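The authors' FDR was missing for 29.2% of all 27179 genes. Missing values made up 27.5% of the genes tested, 30.9% of those below an average log2 CPM of 0 and 27.0% of those at 8 or above. Among called genes, 72 of the 237 positive ones (30.4%) and 215 of the 764 negative ones (28.1%) had no FDR. The genes without one include Ly6d, so that a reading of the deposited FDR alone passes over called genes on both sides.

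Within narrow ranges of level the implied standard error varied little between genes. Between an average log2 CPM of 6.75 and 7, the 10th and 90th percentiles over 291 genes were 0.261 and 0.291, and between 6.50 and 6.75 over 303 genes they were 0.169 and 0.235. The share of genes with an unadjusted p under 0.05 was 7.90% in the upper range and 21.5% in the lower one, while the median absolute log2 fold change was 0.18 and 0.17. The error thus changed at this level and the size of the fold changes hardly did.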
